A study of Mus musculus with 6 samples.

Results

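The oocyte transcription factors examined here are 9 genes, *Figla*, *Nobox*, *Sohlh1*, *Sohlh2*, *Lhx8*, *Taf4b*, *Tbpl2*, *Pou5f1* and *Sall4*, out of 25899 genes in the deposited expression table. They are taken by symbol, with no measured value in the rule, and each matched a single row. The study asked how the binding of mRNAs to polysomes differs with maternal age, by sequencing RNA from sucrose gradient fractions of oocytes. The 6 libraries analysed here are all from aged females (AF), CD1 mice 58 weeks old, with 3 libraries of the non-polysomal fraction (NP1, NP2 and NP3) and 3 of the polysomal fraction (P1, P2 and P3); the oocytes of young females were not analysed here. Strain and age are those of the sample labels; the methods of the study name ICR mice and give the age in months. The lighter gradient fractions, up to single ribosomes, made up NP, and the heavier ones, with several ribosomes per mRNA, made up P.

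Both fractions share every treatment. Females were primed with pregnant mare serum gonadotropin, fully grown germinal vesicle oocytes were held in IBMX while they were collected and denuded, and they were then cultured without it for 180 minutes, past nuclear envelope breakdown (NEBD). Cycloheximide, which holds ribosomes on mRNA, was added before freezing. Each sample pooled 200 oocytes, so fewer oocytes with an mRNA and less of that mRNA per oocyte cannot be told apart. No source states whether the samples came from separate groups of females, and p-values then measure only the spread between these samples, which may be technical.

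These factors are known for building the oocyte transcriptome during follicle growth. *Figla*, *Sohlh1* and *Sohlh2* encode basic helix-loop-helix proteins, *Nobox* and *Lhx8* homeobox proteins, and together they are needed for the formation of follicles and the expression of genes such as those of the zona pellucida. *Tbpl2* and *Taf4b* encode variant parts of the basal transcription machinery used in germ cells, and *Pou5f1* (Oct4) and *Sall4* encode factors shared with pluripotent cells. A fully grown oocyte no longer transcribes, so the mRNAs measured here are stored ones, and whether such mRNAs are held free or loaded with ribosomes is known to depend in part on their 3′ ends. The known letters there are the poly(A) signal (AATAAA or ATTAAA) and the cytoplasmic polyadenylation element (TTTTAT or TTTTAAT), which is bound by CPEB and can lie beside that signal.

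The 3′ ends were therefore read from the GENCODE M21 transcripts (GRCm38), on the transcript strand only. The last 100 bases of *Sohlh2* held a cytoplasmic polyadenylation element, starting 76 and again 11 bases from the end, and none of the other 8 factors did. Of 19608 genes, 13.8% hold TTTTAT, 5.05% TTTTAAT and 17.9% either in a window of that length. A poly(A) signal was found in 7 of the 9 factors and in 78.4% of all genes. *Tbpl2* and *Taf4b* had none of the 4 motifs, which says only that these letters are absent from that window. The following stretches of 30 bases are written 5′ to 3′ with the motifs in capitals. They show the 3′ ends of the 4 factors with the highest means over the 6 libraries and of *Sohlh2*, where the element was found.
Nobox, chr6:43303689-43303718, minus strand: AATAAATAAAacagtaactactgggtgttt
Sall4, chr2:168748332-168748361, minus strand: gaaAATAAAgtgaatgttttccctccatga
Lhx8, chr3:154306296-154306325, minus strand: taagttcATTAAAcactttgcatccttgtg
Pou5f1, chr17:35510743-35510772, plus strand: tcttaAATAAAgactgggacacacagtaga
Sohlh2, chr3:55209928-55209957, plus strand: tttAATAAAatgttttctcTTTTATaataa
In *Nobox* a pair of AATAAA motifs overlap, starting 45 and 41 bases from the transcript end. In *Sohlh2* the poly(A) signal starts 27 bases from the end and the second TTTTAT follows it.

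Values are FPKM, reads divided by the length of the exons and by the mapped reads of the library, which allows genes of different length to be compared within a library. FPKM is set separately in each library, so a ratio of P over NP compares levels within the fractions and is not the share of molecules on polysomes. Depth, recovered from the smallest steps between values, was 1237632 to 18094969 reads in NP and 163819 to 1549182 in P, and P1 was the shallowest. For a transcript of 2 kb, 3 reads correspond to 0.0829 to 1.21 FPKM in NP and to 0.968 to 9.16 FPKM in P. Only 53.0% to 59.6% of the low values came out as whole reads within 0.02, so what a step counts is not settled and read numbers below are estimates. The oocyte label was checked with 10 oocyte markers, whose FPKM summed to 12016 to 15645 in NP and 5049 to 14768 in P. Of 12 granulosa cell markers, 6 were listed at 0 in all 6 libraries, *Foxl2*, *Amh* and *Fshr* among them, while *Gata4* was at 4.46 to 40.7 FPKM in every library, *Cyp19a1* reached 104 FPKM in NP3 and *Nr5a2* 26.9 FPKM in NP3. The list summed to 21.4 to 140.9 FPKM in NP and at 5.64 to 57.1 in P. All 8 blood markers were listed at 0. The part of granulosa cell RNA in the results below was not tested.

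Together the 9 factors summed to 703, 861 and 537 FPKM in NP1, NP2 and NP3, and to 160.4, 220.2 and 154.8 FPKM in P1, P2 and P3. Every P library was below every NP library, as it was for the FPKM sum of all genes, 597261 to 633110 in NP and 246182 to 393876 in P. *Nobox* made up 55.0%, 65.9% and 75.6% of the sum in the NP libraries and 20.0%, 47.3% and 24.1% in the P libraries. *Sall4* made up 27.8%, 10.4% and 13.1% in NP and 46.7%, 36.6% and 58.5% in P. The leading factor was therefore *Nobox* in every NP library and in P2, and *Sall4* in P1 and P3.

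**Figure D1:**
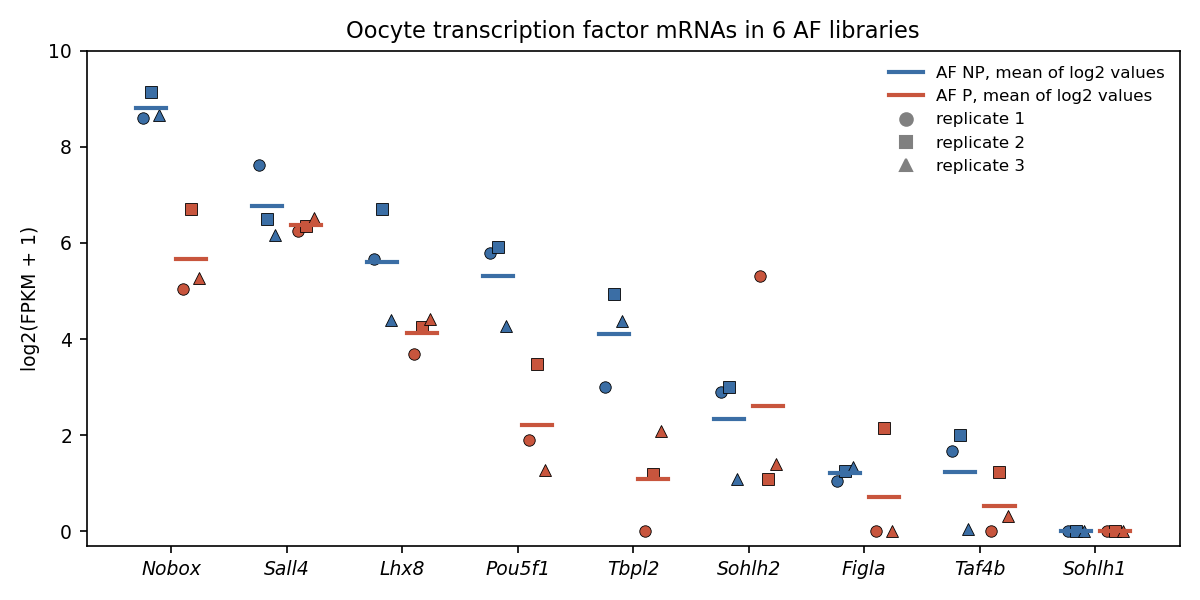
Level of each of the 9 factors in the 6 libraries, as log2(FPKM + 1) on the vertical axis, with 1 point per library (blue AF NP, red AF P, shape by replicate number) and a bar at the mean of the 3 log2 values. *Nobox*, *Pou5f1* and *Tbpl2* have all P points below all NP points, the *Sall4* points overlap, and *Sohlh1* is at 0 throughout.

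P was compared with NP by limma on log2(FPKM + 1) over the 10578 genes whose mean FPKM exceeded 1 in NP or in P, with Benjamini-Hochberg adjustment and a threshold of 0.1. Of the 9 factors, 8 passed the filter, and 1, *Nobox*, was past the threshold, lower in P; none was higher, and 3 had an unadjusted p under 0.05. With the replicate number as a block, 2 factors were called, *Nobox* and *Pou5f1*, both lower. The block takes NP and P libraries of the same number as 1 sample, which no source states in words. Over all genes tested, 1.8% were called lower (190) and 0.0189% higher (2), 15.5% were lower at an unadjusted p under 0.05, and 80.1% had a ratio below 0. The block raised the calls to 663 lower (6.27%) and 5 higher. The calls also shift with the scaling, with 1 lower and 2 higher after median-of-ratios rescaling, 2 and 2 after quantile normalization and 5 and 2 at a common FPKM sum. The median log2 ratio of all genes was -1.03 and that of the 8 factors -1.10, with 7 below 0 and 1 above. *Taf4b*, among the 7, passed the filter only through its mean in NP (1.74 FPKM, against 0.537 in P). Its ratio below 0 was therefore favoured by the filter. The median of all genes moved to -0.37, 0.003 and -0.43 under those scalings, and the factors below 0 then numbered 5 of 7, 4 of 8 and 6 of 8. Ratios are therefore also given relative to the median of all genes.

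*Nobox* (ENSMUSG00000029736, GRCm38 chr6:43303674-43309562, minus strand), a homeobox factor that drives *Gdf9* and other oocyte genes, had the highest mean level of the 9 factors over the 6 libraries and in NP, but not in P. Its FPKM was 387, 567 and 406 in NP1, NP2 and NP3. In P1, P2 and P3 it was 32.1, 104.1 and 37.3 FPKM, from about 11, 239 and 116 reads. All P libraries were below all NP libraries, and the mean fell from 453 ± 99.0 to 57.9 ± 40.2 FPKM (SD, n = 3 each), 7.83-fold. P2 held most of the P sum, and without it the fold was 13.0, against 6.41 to 8.41 without any other library. The log2 ratio was -3.13 (SE 0.76, 95% confidence interval -4.70 to -1.56, limma adjusted p = 0.0586), or -2.10 relative to the median of all genes. *Nobox* ranked 276, 182 and 299 among all genes in the NP libraries and 1766, 401 and 1486 in P. The call was lost when any NP library was left out, with limma adjusted p of 0.351 without NP1, 0.353 without NP2 and 0.165 without NP3, and kept without P1 (0.0876), P2 (0.0556) or P3 (0.0438), unless the genes that passed the filter in all 6 libraries were tested (0.144 to 0.208). It was also lost under the 3 other scalings, where the ratio lay between -2.205 and -2.003 and the adjusted p between 0.518 and 0.650, with no filter (0.303) and with no trend (0.139).

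*Lhx8* (chr3:154306288-154330651, minus strand) encodes the other homeobox factor, with LIM domains through which it is joined to cofactors. It was at 50.0, 104.0 and 20.05 FPKM in NP1, NP2 and NP3. In the P libraries it was at 11.9, 18.1 and 20.35 FPKM, within a narrow range. P3 was just above NP3, so the fractions overlapped, and the means were 58.0 ± 42.6 and 16.8 ± 4.38 FPKM (SD, n = 3 each). The log2 ratio of -1.48 (SE 1.01, 95% confidence interval -3.57 to 0.62) did not pass the threshold (limma adjusted p = 0.460). When a library was left out, it ranged from -2.07 (without NP3) to -0.92 (without NP2). Relative to the median of all genes it was -0.44.

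*Pou5f1* (chr17:35506037-35510776, plus strand), the POU factor Oct4, was at 54.4, 59.1 and 18.2 FPKM in NP1, NP2 and NP3 and at 2.71, 10.1 and 1.43 FPKM in P1, P2 and P3. All P libraries were below all NP libraries, and the mean level was 9.26-fold higher in NP. P2 held most of the P sum, and without it the fold was 21.2, against 6.86 to 12.0 without any other library. The P values rest on about 1, 26 and 5 reads. In P1, 3 reads would correspond to 8.15 FPKM, under the lowest NP value. The log2 ratio was -3.11 (SE 1.14, 95% confidence interval -5.47 to -0.74), close to that of *Nobox*, and with a limma adjusted p of 0.193 it was not called. With the replicate block it was, at a limma adjusted p of 0.0987. A gene on the opposite strand, *Gm19553*, overlaps *Pou5f1*, and was listed at 70.3, 57.6 and 23.0 FPKM in NP and at 0, 8.87 and 1.31 FPKM in P. The strand setting of the counting is not given, so reads of the overlapping stretch cannot be told apart. *Pou5f1* also has retrocopies, and how reads with several matches were counted is not given either.

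*Sall4* (chr2:168748332-168767943, minus strand), a zinc finger factor of germ and pluripotent cells, had levels in the fractions that overlapped. It was at 195, 89.7 and 70.4 FPKM in NP1, NP2 and NP3 and at 75.0, 80.7 and 90.5 FPKM in P1, P2 and P3. The P libraries lay close together and inside the NP range, with means of 118.5 ± 67.3 in NP and 82.1 ± 7.84 FPKM in P (SD, n = 3 each). The log2 ratio was -0.39 (SE 0.81, 95% confidence interval -2.07 to 1.29, limma adjusted p = 0.819). It lay 0.64 above the median of all genes, and turned positive under the 3 other scalings (0.54 to 0.61) and without NP1 (0.04). *Gm14261*, on the opposite strand at its 5′ end, stayed at 0 to 2.83 FPKM.

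*Tbpl2* (chr2:24071721-24096595, minus strand), the TBP-related protein that takes the place of TBP in growing oocytes, was at 7.03, 29.5 and 19.8 FPKM in NP1, NP2 and NP3. It was at 0, 1.27 and 3.28 FPKM in P1, P2 and P3, from 0, 2 and 7 reads. All P libraries were below all NP libraries, but in P1 a level up to 13.3 FPKM, above the NP1 value, would not have been detectable at 3 reads. The log2 ratio was -3.01 (SE 1.24, 95% confidence interval -5.58 to -0.45, limma adjusted p = 0.2505), or -1.98 relative to the median. *Taf4b* (chr18:14783245-14900359, plus strand), a TFIID subunit of germ cells, was at 2.197, 2.99 and 0.032 FPKM in NP and at 0, 1.36 and 0.251 FPKM in P. NP3 and P3 both rested on 2 reads, and the fractions overlapped (log2 ratio -0.72, SE 0.90, limma adjusted p = 0.669). When a library was left out, the ratio of *Taf4b* ranged from -1.32 (without NP3) to -0.34 (without NP2).

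The 3 basic helix-loop-helix factors were low. *Sohlh2* (chr3:55182028-55209957, plus strand), which acts early in oocyte differentiation, was at 6.49, 7.04 and 1.12 FPKM in NP1, NP2 and NP3 and at 38.7, 1.11 and 1.64 FPKM in P1, P2 and P3. A single library, P1, held 93.4% of its P sum, from 15 reads in the shallowest library, and the other P libraries were at the level of NP3. It had the only log2 ratio above 0 among the 8 factors tested, 0.27 (SE 1.35, 95% confidence interval -2.52 to 3.05, limma adjusted p = 0.932), and this turned to -1.09 without P1 and to -0.36 without NP3. *Figla* (chr6:86017191-86020996, plus strand), the activator of zona pellucida genes, was at 1.06, 1.38 and 1.52 FPKM in NP. In P it was at 0, 3.46 and 0 FPKM, the value in P2 from about 3 reads, and in P1 and P3 levels like those of NP lay below the 21.9 and 2.32 FPKM that 3 reads represent. Its log2 ratio was -0.49 (SE 0.93, limma adjusted p = 0.795), and ranged from -1.21 (without P2) to -0.13 (without P1 or P3) when a library was left out. *Sohlh1* (chr2:25842995-25847248, minus strand), the partner of *Sohlh2*, was listed at 0 in all 6 libraries and was not tested. The limit set by 3 reads was 0.129 FPKM in NP2, the deepest library, and 14.2 FPKM in P1.

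**Figure D2:**
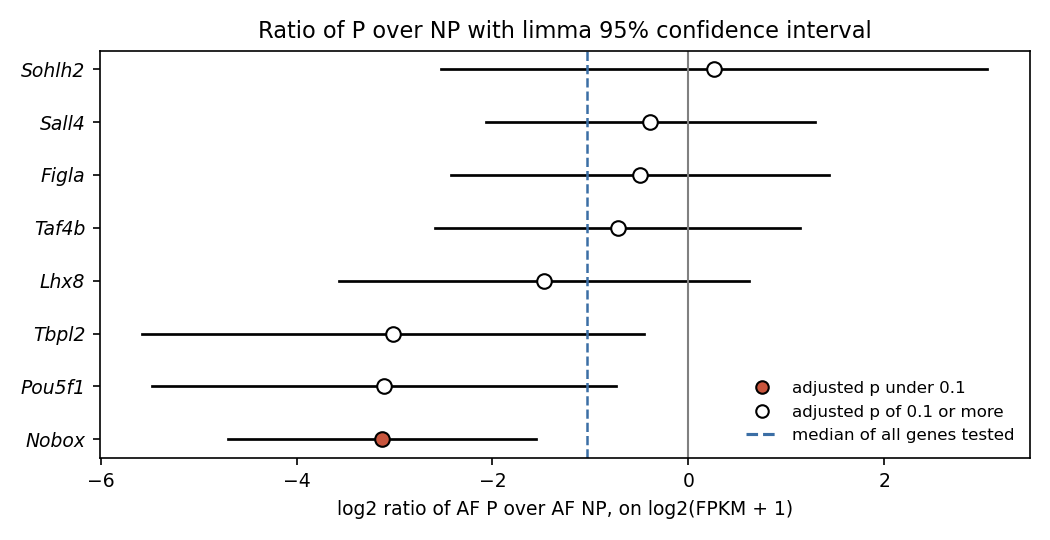
Log2 ratio of AF P over AF NP (horizontal axis, on log2(FPKM + 1)) for the 8 factors tested, with the limma 95% confidence interval (n = 3 libraries each). The filled point marks *Nobox*, the factor past the threshold, the grey line 0 and the dashed line the median of all genes, -1.03, which lies inside the intervals of 7 factors and to the right of that of *Nobox*.

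Of the 8 factors tested, 3 (*Nobox*, *Pou5f1* and *Tbpl2*) had every P library below every NP library, against 23.2% of all genes tested. None had every P library above every NP library, against 0.633%. For any 1 gene, the smallest p that an exact permutation of 3 libraries against 3 allows is 0.1. In order of mean level, NP ran *Nobox*, *Sall4*, *Lhx8*, *Pou5f1*, *Tbpl2*, *Sohlh2*, *Taf4b*, *Figla* and *Sohlh1*. Only the first and the last step of that order had ranges that did not overlap. In P the order was *Sall4*, *Nobox*, *Lhx8*, *Sohlh2*, *Pou5f1*, *Tbpl2*, *Figla*, *Taf4b* and *Sohlh1*, and only *Nobox* and *Lhx8* had ranges apart. *Nobox* was above *Sall4* in 3 of 3 NP libraries and *Sall4* above *Nobox* in 2 of 3 P libraries.

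To remove the scale of each library, levels were also expressed relative to *Sall4* in the same library, a reference chosen after its values had been seen. The *Sall4* ratio lay 0.64 above the median of all genes, so other genes tend to lie lower in P on this scale. *Nobox* was 1.98, 6.32 and 5.77 times *Sall4* in NP1, NP2 and NP3 and 0.428, 1.29 and 0.413 times in P1, P2 and P3. The libraries of the fractions did not overlap, and the mean log2 ratio to *Sall4* differed by -2.77 (P minus NP), or by -3.31 to -2.47 when any library was left out. *Pou5f1* was 0.279, 0.659 and 0.259 times *Sall4* in NP and 0.0361, 0.125 and 0.0158 times in P, again with no overlap. *Lhx8* was 0.256, 1.16 and 0.285 times in NP and 0.158, 0.224 and 0.225 times in P, apart by a small step. For *Sohlh2* the fractions overlapped, with P1 far above the other libraries. Among 4527 genes above 0 in every library, 12.9% had every P library below every NP library on this scale and 2.47% every P library above. The exact two-sided permutation p was 0.1 for *Nobox*, *Pou5f1* and *Lhx8*, the smallest that can be had, and 0.175 after adjustment over the 7 genes compared in this way. As the reference was chosen on the same values, these p-values are no separate support.

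**Figure D3:**
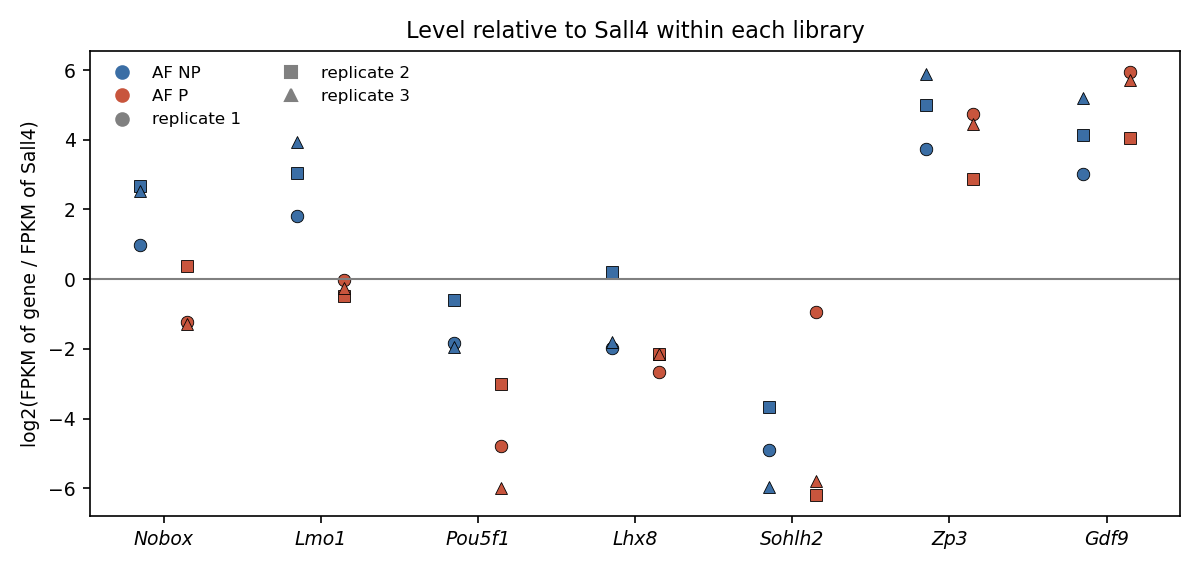
Level of 7 genes relative to *Sall4* in the same library, as the log2 of the FPKM ratio (vertical axis), with 1 point per library (blue AF NP, red AF P, shape by replicate number) and a line where both are equal. *Nobox*, *Lmo1*, *Pou5f1* and *Lhx8* have all P points below all NP points; *Sohlh2*, *Zp3* and *Gdf9* overlap.

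Genes that these factors are known to drive were present in both fractions, the highest of them above the factors themselves. None of 15 downstream oocyte genes was called by limma, against 1.82% of all genes, and 2 were lower at an unadjusted p under 0.05, against 15.5%. With the replicate block 1 was called lower, against 6.27% of all genes; it was *Zp1*, named here after its value was seen. *Gdf9*, an oocyte growth factor and target of *Nobox*, was at 1591, 1580 and 2602 FPKM in NP and at 4628, 1329 and 4776 FPKM in P (log2 ratio 0.72, SE 0.50, limma adjusted p = 0.461). *Zp3*, the zona pellucida glycoprotein regulated by *Figla*, was at 2602, 2891 and 4157 FPKM in NP and at 2021, 589 and 1999 FPKM in P, with every P library below every NP library (log2 ratio -1.24, SE 0.50, limma adjusted p = 0.241). *Padi6*, a component of the cytoplasmic lattices, overlapped between fractions, at 1280, 1419 and 1766 FPKM in NP and at 1770, 395 and 3071 FPKM in P. The median of the list was -0.35, 0.68 above that of all genes; 11 of 15 ratios were below 0, and 11 of 15 were above 0 under each of the 3 other scalings. Relative to *Sall4*, *Gdf9* differed by 1.11 and *Zp3* by -0.85 on the log2 scale, both with overlapping fractions.

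The partners of *Tbpl2* and *Taf4b* are the general factors TFIID and TFIIA. Of 19 genes 18 were tested, 1 was called lower, against 1.8% of all genes, 6 were lower at an unadjusted p under 0.05, against 15.5%, and 7 had every P library below every NP library, against 23.2%. With the replicate block 3 were called lower, against 6.27%, *Taf10*, *Taf8* and *Taf6*, the last named here after its value was seen. The gene called was *Taf10*, a TFIID subunit, at 97.5, 91.1 and 940 FPKM in NP and at 21.3, 8.03 and 12.5 FPKM in P (log2 ratio -3.87, SE 1.002, limma adjusted p = 0.0685). NP3 alone was some way above the other NP libraries, and without it the ratio was -2.77 and the adjusted p 0.171; the call was also lost without NP1 (0.341), NP2 (0.211) or P2 (0.152), under the 3 other scalings (0.462 to 0.643), with a pseudocount of 0.1 (0.135), with no filter (0.481) and with no trend (0.131). If the genes that passed the filter in all 6 libraries were tested, it was lost without P1 (0.206) or P3 (0.186) too. The ratio of *Taf10* lay between -4.45 and -2.77 when any library was left out and between -2.98 and -2.86 under the other scalings. *Taf8*, another TFIID subunit, was at 139, 229 and 576 FPKM in NP and at 59.3, 20.2 and 85.2 FPKM in P, with no overlap (log2 ratio -2.47, SE 0.84, limma adjusted p = 0.165, or 0.0905 with the replicate block). *Gtf2a1l*, the germ cell form of a TFIIA subunit that acts with *Tbpl2*, was at 75.8, 150.6 and 117.6 FPKM in NP and at 56.5, 47.6 and 24.3 FPKM in P (log2 ratio -1.43, SE 0.86, limma adjusted p = 0.411). The list median was -0.72 and stayed above that of all genes under the 3 other scalings.

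A list of 10 LIM cofactor genes was read because *Lhx8* has LIM domains. Whether each gene helps or opposes *Lhx8* was not tested. Of the 10, 7 were tested and 1 was called, lower, against 1.82% of all genes. *Lmo1*, a LIM-only protein, was at 683, 746 and 1085 FPKM in NP and at 74.1, 58.1 and 75.3 FPKM in P. The libraries within each fraction lay close together and far from those of the other (log2 ratio -3.56, SE 0.67, limma adjusted p = 0.0138), 2.53 below the median of all genes. Relative to *Sall4* it differed by -3.19 (P minus NP) on the log2 scale. Its call was lost without NP1 (adjusted p = 0.233), NP2 (0.142) or NP3 (0.165) and kept without P1, P2 or P3 with the filter applied anew. If the genes that passed the filter in all 6 libraries were tested, it was lost without P1 (0.165) or P2 (0.163) too. It was also lost under the 3 other scalings (0.190 to 0.473), with no filter (0.257) and with no trend (0.121). Its ratio stayed between -3.69 and -3.36 when any library was left out and between -2.63 and -2.56 under the other scalings. *Ldb1*, which bridges LIM proteins, was at 249, 209.8 and 50.8 FPKM in NP and at 78.4, 40.1 and 121.6 FPKM in P, with overlap. *Lmo3* was at 4.00, 6.09 and 9.88 FPKM in NP and at 20.6, 4.86 and 3.45 FPKM in P, where P1 stood alone.

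Of 7 E protein and Id genes, which bind basic helix-loop-helix factors, 3 passed the filter and none was called by limma, against 1.82% of all genes, with 0 lower at an unadjusted p under 0.05, against 15.5%. *Id2*, an inhibitor of such factors, was at 12.1, 7.44 and 0.584 FPKM in NP and at 4.81, 0.690 and 77.8 FPKM in P, where P3 stood alone. *Tcf3* was likewise highest in P3, at 32.0 FPKM, and between 0.837 and 8.21 FPKM elsewhere. *Tcf12* was highest in NP1, at 21.8 FPKM, and at most 2.05 FPKM elsewhere. The P means of *Id2* and *Tcf3* and the NP mean of *Tcf12* were each set mostly by 1 library.

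Most of the network that works with *Pou5f1* and *Sall4* in pluripotent cells was not seen. Of 18 other pluripotency factors, 12 were listed at 0 in all 6 libraries, *Sox2*, *Nanog* and *Klf4* among them, and 5 were tested, with none called by limma, against 1.82% of all genes, and 0 lower at an unadjusted p under 0.05, against 15.5%; so few genes say little either way. *Esrrb*, a nuclear receptor, had the highest mean of the list, at 40.6, 45.3 and 91.9 FPKM in NP and at 20.2, 8.98 and 44.9 FPKM in P (log2 ratio -1.40, SE 0.99, limma adjusted p = 0.468). *Tfap2c* followed, at 17.1, 10.9 and 8.92 FPKM in NP and at 16.6, 41.7 and 1.75 FPKM in P, spread around the NP values with P2 highest (log2 ratio -0.02). *Stat3* was at 28.2, 24.0 and 4.08 FPKM in NP and at 10.9, 11.1 and 5.56 FPKM in P. The list median of -1.17 was 0.14 below that of all genes, and after quantile normalization 0.18 above it.

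**Figure D4:**
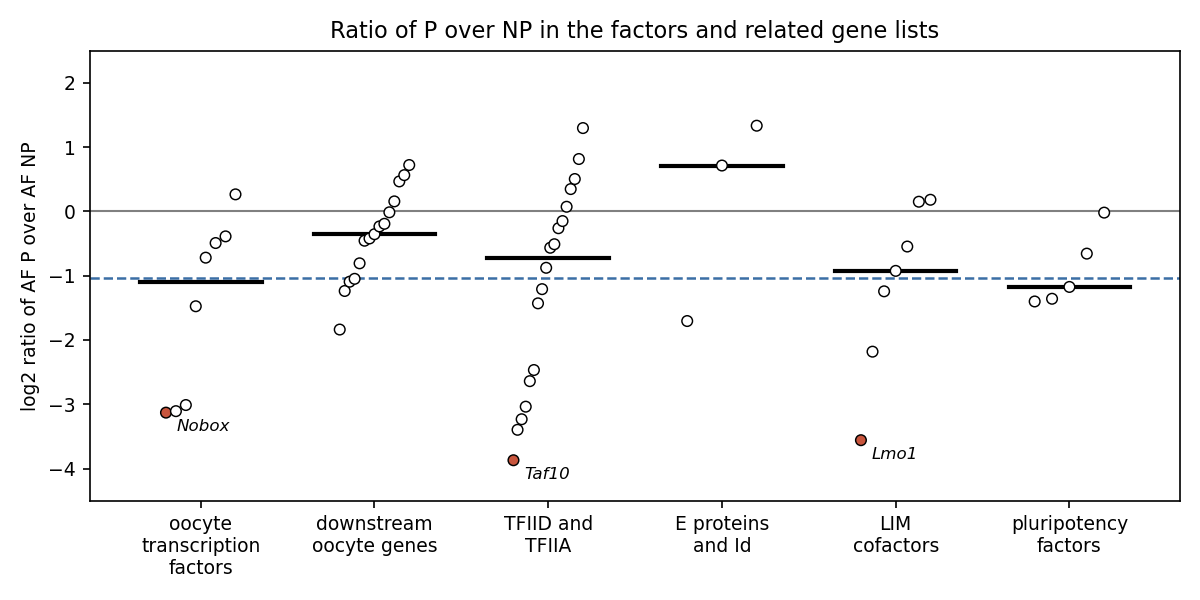
Log2 ratio of AF P over AF NP (vertical axis) for the tested genes among the oocyte transcription factors and 5 related lists, with 1 point per gene, a bar at each list's median and a dashed line at the median of all genes, -1.03. The filled points, *Nobox*, *Taf10* and *Lmo1*, are past the threshold and lie between -3.87 and -3.13.

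The gene most like each factor across the 6 libraries was found by the mean absolute difference of log2(FPKM + 1) among 10570 other genes. *Copz1* was nearest to *Nobox*, with a difference of 0.39, at 232, 470 and 236 FPKM in NP and at 29.3, 78.2 and 37.5 FPKM in P (limma adjusted p = 0.113, or 0.0567 with the replicate block). *Kdm2b* was nearest to *Sall4* (0.25), with 66.1 to 86.9 FPKM in P, and *Sdhc* to *Lhx8* (0.28), with 13.1 to 19.3 FPKM in P. *Rpn2* was nearest to *Pou5f1* (0.38) and *Rpl27a*, a ribosomal protein gene with many retrocopies, to *Tbpl2* (0.21). *M6pr* shared the isolated high value of *Sohlh2* in P1, with 36.6 FPKM there and at most 1.08 in P2 and P3 (0.39). *Eapp* and *Mslnl* were nearest to *Figla* and *Taf4b* (0.064 and 0.049), whose low values leave little to compare.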

How the data were processed

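RNA of the NP and P fractions was freed of ribosomal RNA, amplified as whole transcriptome from random and oligo-dT primers and sequenced. Per the labels, the authors used Trim Galore 0.4.1, FastQC 0.11.5 and HISAT2 2.0.5 with GRCm38, and deposited FPKM per gene, made in Seqmonk; not given in the sources used here are the annotation release, the strand setting and the filters on reads. Columns of the authors' means per fraction were not used. Of 25965 rows, 58 symbols were duplicated and the row with the highest mean was kept. Amplification and low input can make single low values unreliable, and a library in which more reads map elsewhere than to listed genes has lower FPKM for all of them.

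Read numbers were estimated from FPKM with exon lengths of GENCODE M21, found for 22629 genes. P and NP were compared, two-sided, in R 4.3.3 with limma 3.58.1, which modelled the variance as a function of the level, on log2(FPKM + 1) of genes whose mean FPKM exceeded 1 in NP or in P; ratios of low genes are understated on that scale. Confidence intervals are limma's, and limits of 3 reads cover counting error only.

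The study pooled the gradient fractions of each sample into an NP and a P library, and libraries with the same replicate number were taken as coming from 1 sample, which no source states in words. Their deviations from the fraction means correlated at 0.0634, 0.0991 and 0.1158, and those of differently numbered libraries at -0.0886 to 0.0208. The fit was made without the number as a block, and the blocked value is given where it changes a call.

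The rule for the members uses no measured value, but members and lists were chosen with earlier results of these data known. *Taf9b*, *Tcf12* and *Tfcp2l1*, members of the lists, are also in a list the study chose on these samples. Named genes are the 9 factors, the 3 highest of each list by mean FPKM, genes past the threshold, and the nearest gene to each factor. *Taf4* was matched through a RefSeq synonym. Alternatives were other pseudocounts, filters, scalings and thresholds, no trend, a replicate block and leaving out each library.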

Additional observations from a re-analysis of the deposited data

How the results depend on the processing

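Of the 22 alternatives, other filters, no trend, the block and the stricter threshold cannot change the ratio of a gene. Under other pseudocounts, under the 3 other scalings and when any library was left out, the ratios of *Nobox*, *Tbpl2*, *Pou5f1* and *Lhx8* stayed below 0. Those of the first 3 were also below the median of all genes. The limma count of genes past the threshold, 192, became 69 with a pseudocount of 0.1, 1 with no filter, 15 with no trend, 3 after median-of-ratios rescaling, 4 after quantile normalization, 7 at a common FPKM sum, 65 at an adjusted p of 0.05, and 1 to 331 when any library was left out (0 to 55 if the genes passing the filter in all 6 libraries were tested). The number of factors past it, 1, became 0 with no filter, no trend, each rescaling or the stricter threshold, with 1 to 3 at an unadjusted p under 0.05, and 0 to 1 when a library was left out; keeping that filter then gave 0 throughout, with 1 to 4 at an unadjusted p under 0.05. The common FPKM sum and that filter were added after the data had been seen. *Nobox* was called in 7 of 21 other fits (adjusted p 0.0250 to 0.650, log2 ratio -3.65 to -2.003). The ratio of *Sall4* turned to 0.60 after median-of-ratios rescaling, 0.61 after quantile normalization and 0.54 at the common sum, and ranged from -0.69 to 0.041 when a library was left out. Those of *Figla* and *Taf4b* turned to 0.32 and 0.47 after quantile normalization, and that of *Sohlh2* ranged from -1.09 to 1.02 when a library was left out (-0.36 without NP3); the cause was not tested.

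With the replicate number as a block, limma called 668 genes and 2 factors, *Nobox* (adjusted p = 0.0250) and *Pou5f1* (adjusted p = 0.0987). Among the other genes named by rule it added *Taf8* and *Copz1* and changed no other call. At the depth of P1, 3 reads correspond to more than any NP value of *Figla*, *Sohlh2* or *Taf4b*.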
